A study of Homo sapiens with 12 samples.

Results

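MYADML2, PYCR1 and NOTUM are 3 protein-coding genes that follow each other on the minus strand of chromosome 17q25, and they are described here over the 4 conditions of an RNA-seq experiment in OPM-1, an established human multiple myeloma cell line. They are 3 of the 38478 genes in the deposited table. MYADML2 was chosen on its measured values, because it was low in the combination treatment, whereas PYCR1 and NOTUM were chosen as its flanking genes, and the question was whether neighbours that overlap MYADML2 moved with it. Each culture received, for 48 h, either lenalidomide (LEN) at 0.1 μM, AI-10-104 at 1 μM, LEN+AI-10-104 at those concentrations, or the solvent DMSO alone. Every condition had 3 samples, which the study's methods call biological replicates, and all came from this 1 cell line. LEN is an immunomodulatory drug that directs the ubiquitin ligase substrate receptor CRBN to the transcription factors IKZF1 and IKZF3, which are then degraded. AI-10-104 is an inhibitor of RUNX transcription factors that interferes with their binding to CBFβ.

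MYADML2 encodes a protein with MARVEL domains, which are blocks of membrane-spanning helices, and its function is little known. PYCR1 encodes the mitochondrial enzyme that reduces pyrroline-5-carboxylate to proline, the last step of proline synthesis, and proliferating tumour cells often carry it at high levels. NOTUM is a secreted enzyme that removes the lipid from Wnt proteins and so switches off Wnt signalling outside the cell.

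Levels are given in RPKM, the usual read density scaled to gene length and to the reads counted on genes in that sample. Samples held between 16352548 and 31386210 such reads, and the condition medians were 30219883 (DMSO), 28795905 (LEN), 23153105 (AI-10-104) and 19417027 (LEN+AI-10-104), so the combination libraries were the shallowest by median. The floor was set at 3 reads, equal to 0.0390 to 0.0748 RPKM on MYADML2 depending on the sample, and it covers counting error only. Of 9 plasma cell markers, 8 averaged at least 0.5 RPKM, with a summed level of 4038 to 4937 RPKM per sample, and the exception was CD27. None of the 4 B cell, 4 T cell, 4 myeloid and 4 epithelial or stromal markers averaged 0.5 RPKM over the 12 samples, and no list summed to more than 0.575 RPKM in a sample. PAX5, CD3D, EPCAM and PDGFRB had no read in any sample.

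In the GENCODE 44 annotation of GRCh38, MYADML2 (ENSG00000185105.5) lies at chr17:81939645-81947233 and has 1 transcript with 3 exons, and its whole coding sequence of 921 bases is in exon 3. PYCR1 (ENSG00000183010.17) lies downstream at chr17:81932384-81942412 and has 17 annotated transcripts. NOTUM (ENSG00000185269.12) lies upstream at chr17:81952507-81961840, and 5273 bases separate its end from the start of MYADML2. MYADML2 and PYCR1 share 408 exonic bases on the same strand, whereas MYADML2 and NOTUM share 0.

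The shared bases come from 2 long PYCR1 transcripts that begin inside MYADML2. Exon 1 of PYCR1-208 (chr17:81940750-81941079) is 330 bases long and lies within exon 3 of MYADML2, with 259 of these bases in the MYADML2 coding sequence. Exon 1 of PYCR1-211 (chr17:81942296-81942412) covers all 78 bases of MYADML2 exon 2 (chr17:81942296-81942373) and ends at the same splice donor. From that donor, MYADML2 is spliced to its own exon 3 and PYCR1-211 is spliced to the PYCR1 exons further downstream. The splice junctions that set the 2 genes apart follow, read from GRCh38 on the minus strand, 5′ to 3′, with 15 bases on each side and exon bases in capitals.
Donor shared by MYADML2 exon 2 and PYCR1-211 exon 1, chr17:81942281-81942310: GGCCATCCAGAAGGGgtgagataaatgttg
Acceptor of MYADML2 exon 3, chr17:81941829-81941858: tcactgcctctgcagGCTGCAGGCACCTGC
Acceptor of PYCR1-211 exon 2, chr17:81936179-81936208: tgtttctcccctcagGCGTCTTGGCTGCCC
Donor of PYCR1-208 exon 1, chr17:81940735-81940764: GCGAGGGAAACTCAGgtgaaccaaagtgtc
Donor of PYCR1-201 exon 1, chr17:81936733-81936762: GCTTCACAGCAGCAGgtaggcccccaggtg
The canonical transcript PYCR1-201 starts downstream of MYADML2 and shares no exonic base with it. In RefSeq, 2344 bases separate the end of MYADML2 from the start of PYCR1, so the overlap depends on the annotation.

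**Figure D1:**
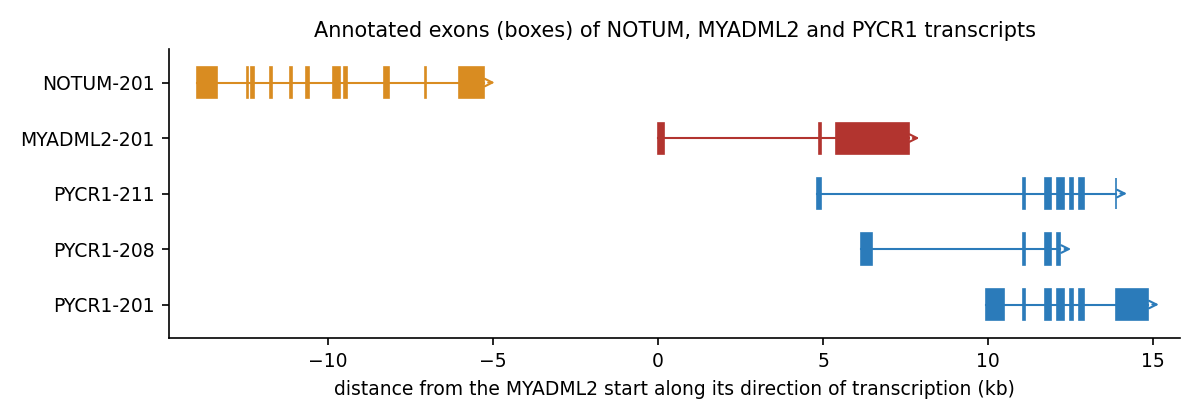
Annotated exons (boxes) of NOTUM-201, MYADML2-201 and 3 PYCR1 transcripts against the distance in kb from the MYADML2 start, with arrows in the direction of transcription. PYCR1-211 and PYCR1-208 begin within MYADML2, whereas PYCR1-201 begins after its end and NOTUM-201 ends before its start.

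The deposited table gives 1 length per gene and no values per transcript or per base. The length for MYADML2 is 2452 bases, equal to its single transcript with the shared bases included. For PYCR1 it is 2304 bases, against 2886 bases for all its GENCODE exons. The libraries were made with a kit that marks the strand, but the strand setting of the read counting, and the rule for reads that lie in exons of both genes, are not given in the sources used here. MYADML2 also shares 96 exonic bases with the antisense lncRNA ENSG00000235296, which shares 148 bases with NOTUM, and PYCR1 shares 450 bases with the antisense lncRNA ENSG00000263585. The part of shared or antisense reads in the values below was not tested.

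For the MYADML2 start, RefSeq gives a promoter window of 300 bases on GRCh38.p14 (chr17:81947184-81947483, minus strand), running from 250 bases before to 50 bases after the start. The 250 bases upstream of the start (chr17:81947234-81947483) are shown because they include a repeat of 45 bases, present in 2 copies and marked in capitals.
MYADML2, upstream 250 bases: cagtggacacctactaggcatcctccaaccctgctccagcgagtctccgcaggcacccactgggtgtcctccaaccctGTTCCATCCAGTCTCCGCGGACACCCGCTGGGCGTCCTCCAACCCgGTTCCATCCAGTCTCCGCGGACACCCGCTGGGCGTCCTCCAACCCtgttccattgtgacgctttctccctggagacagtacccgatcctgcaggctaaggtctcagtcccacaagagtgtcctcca
The full window has a GC content of 60.7%, against a median of 58.7% over 35116 promoters. It holds 0 matches on either strand to the RUNX motifs TGTGGT and TGCGGT, which occur in 13.1% and 7.29% of all promoters. It likewise holds 0 matches to the IKZF motif TGGGAA, found in 24.0% of promoters, and 0 to TGATGNAA, a composite site of ATF4, found in 3.62%. PYCR1 and NOTUM have no entry.

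MYADML2 was at its highest in DMSO and was lower in each treatment, with the combination lowest. In DMSO its level was 4.98, 4.84 and 4.46 RPKM, from 383, 359 and 233 reads. In LEN it was 3.36, 3.73 and 3.60 RPKM, from 160, 279 and 254 reads. All LEN samples were thus below all DMSO samples, as held for 7.03% of all genes tested. In AI-10-104 it was 2.26, 2.27 and 2.08 RPKM, from 126, 164 and 118 reads, and in LEN+AI-10-104 it was 1.22, 1.35 and 1.26 RPKM, from 58, 54 and 63 reads. The 4 conditions did not overlap in this order, which only describes a gene chosen on these values. The share of all genes with the 4 conditions apart was not counted. Even the lowest count lay well above the floor of 3 reads. The condition means were 4.76 ± 0.267, 3.56 ± 0.191, 2.20 ± 0.105 and 1.27 ± 0.0658 RPKM (SD, n = 3), in the order DMSO, LEN, AI-10-104 and LEN+AI-10-104. As a share of the DMSO mean, LEN left 74.8%, AI-10-104 left 46.2% and the combination left 26.8%.

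On the log2(RPKM + 0.1) scale, MYADML2 differed from DMSO by -0.41 with LEN, -1.08 with AI-10-104 and -1.82 with both, each with a standard error of 0.07. These differences describe the gene that was chosen on them and carry no test, and in bulk RNA less transcript per cell and fewer cells with it cannot be told apart. From the lowest value upwards, they took place 127, 39 and 17 among the 11241 genes tested. The single treatments summed to -1.49, so that the combination was 0.33 log2 units below that sum (-0.33, standard error 0.10), again as a description. A fit on the reads by voom gave -1.90 for the combination against DMSO, with a larger standard error of 0.12. The errors of 0.07 and 0.10 given here may therefore be too small for a gene with so few reads. Added to AI-10-104, LEN gave a difference of -0.74, larger than the -0.41 it gave over DMSO. The first difference was -0.49 with a pseudocount of 1 and -0.91 with the GC and length correction. The second was -0.43 to -0.34 over the alternatives run, so the size of the excess depends on the setting. The means compared between LEN and AI-10-104 use neither the DMSO nor the combination samples. There MYADML2 was higher in LEN by 0.67 log2 units (standard error 0.07, limma adjusted p = 9.9e-05), where 2.73% of all genes tested were called higher. The standard error was pooled over all 12 samples, so this adjusted p is not free of the samples that chose the gene. It stayed called in all 14 alternatives run, which included a fit of only the conditions compared.

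PYCR1 had the same order of conditions as MYADML2 but a smaller range. In DMSO its level was 122.3, 112.6 and 109.5 RPKM, and in LEN it was 98.9, 102.1 and 101.5 RPKM. In AI-10-104 it was 83.6, 88.5 and 86.9 RPKM, and in LEN+AI-10-104 it was 80.0, 76.7 and 75.0 RPKM. As for MYADML2, no 2 conditions overlapped, although the gap between the lowest AI-10-104 sample and the highest combination sample was narrow. The means were 115 ± 6.68, 101 ± 1.69, 86.3 ± 2.50 and 77.2 ± 2.57 RPKM (SD, n = 3), so that LEN, AI-10-104 and LEN+AI-10-104 left 87.8%, 75.2% and 67.3% of the DMSO mean. These values rest on 2891 to 8846 reads per sample. Of all genes tested, 7.03%, 10.2% and 11.1% likewise lay wholly below DMSO in LEN, AI-10-104 and LEN+AI-10-104. The share with all 4 conditions apart was not counted.

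PYCR1 was chosen by position, so its differences were tested across all 11241 genes with limma, and a gene was called where the adjusted p was 0.05 or less and the log2 fold change was 0.32 or more in size. It fell in LEN+AI-10-104 against DMSO by 0.57 on the log2 scale (standard error 0.04, limma adjusted p = 1.3e-05). It also fell in AI-10-104 against DMSO by 0.41 (limma adjusted p = 0.00027). In LEN against DMSO its difference of -0.19 did not pass (limma adjusted p = 0.074). It fell further when AI-10-104 was added to LEN, with a log2 fold change of -0.38 (limma adjusted p = 0.00046). Adding LEN to AI-10-104 changed it by -0.16, which passed the adjusted p of 0.030 but not the size needed for a call. Between LEN and AI-10-104 the difference was 0.22 (limma adjusted p = 0.0061), also short of that size. Its single treatments summed to -0.60 against -0.57 in the combination, and the interaction was 0.03 (standard error 0.06, limma adjusted p = 0.87). With the GC and length correction the interaction turned to -0.15 (limma adjusted p = 0.42), and without DMSO replicate 1 it was -0.02 (limma adjusted p = 0.90). The treated conditions share the DMSO samples, so the 3 comparisons with DMSO are not independent of each other.

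Calls of this kind were uncommon. Against DMSO, 0.0623% of the genes tested were called lower and 0.587% higher in LEN, 1.09% lower and 0.685% higher in AI-10-104, and 0.641% lower and 2.3% higher in LEN+AI-10-104. The shares called lower were 0.81% for LEN+AI-10-104 against LEN and 0.471% for LEN+AI-10-104 against AI-10-104. Among the same genes PYCR1 held place 467, 232 and 87 from the lowest log2 fold change in LEN, AI-10-104 and LEN+AI-10-104 against DMSO.

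NOTUM was at or under the floor in every sample. It had 3, 2 and 2 reads in DMSO and 2, 3 and 0 in LEN. The AI-10-104 samples had 1 read each, and those of LEN+AI-10-104 had 2, 2 and 0. Its level was at most 0.0552 RPKM, and its floor of 3 reads was 0.0431 to 0.0828 RPKM. No order of conditions could be read at this depth and no fold change is given. NOTUM did not pass the filter of a mean of 0.5 RPKM, so that 2 of the 3 genes were tested.

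**Figure D2:**
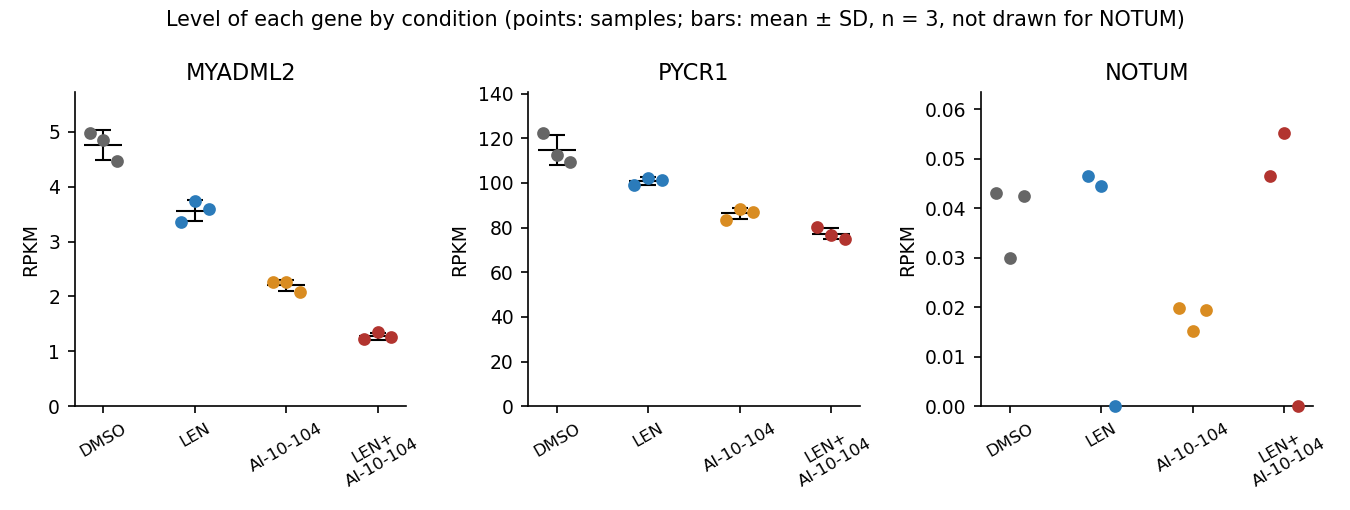
RPKM of MYADML2, PYCR1 and NOTUM in the 12 samples by condition, each panel with its own axis from 0. Points are samples and bars are the mean ± SD (n = 3). MYADML2 and PYCR1 step down from DMSO through LEN and AI-10-104 to LEN+AI-10-104, and all NOTUM points rest on at most 3 reads.

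PYCR1 was far above MYADML2 in level, and the distance between them widened with treatment. Per length, the level of PYCR1 was 24.1 times that of MYADML2 in DMSO and 28.3 times in LEN, and it was 39.3 times under AI-10-104 and 60.7 times under the combination, as means of 3 samples. Expressed in reads, MYADML2 had 4.33, 4.58 and 4.34 reads per 100 PYCR1 reads in DMSO and 3.61, 3.89 and 3.77 in LEN. It had 2.87, 2.73 and 2.55 in AI-10-104 and 1.62, 1.87 and 1.79 in LEN+AI-10-104. Reads of the 2 genes therefore did not keep 1 ratio. The 4 conditions did not overlap in it, and how often this holds for other gene pairs was not counted. The means were 4.41 ± 0.142, 3.76 ± 0.141, 2.71 ± 0.163 and 1.76 ± 0.126 (SD, n = 3), given without a test because the low level of MYADML2 chose it.

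**Figure D3:**
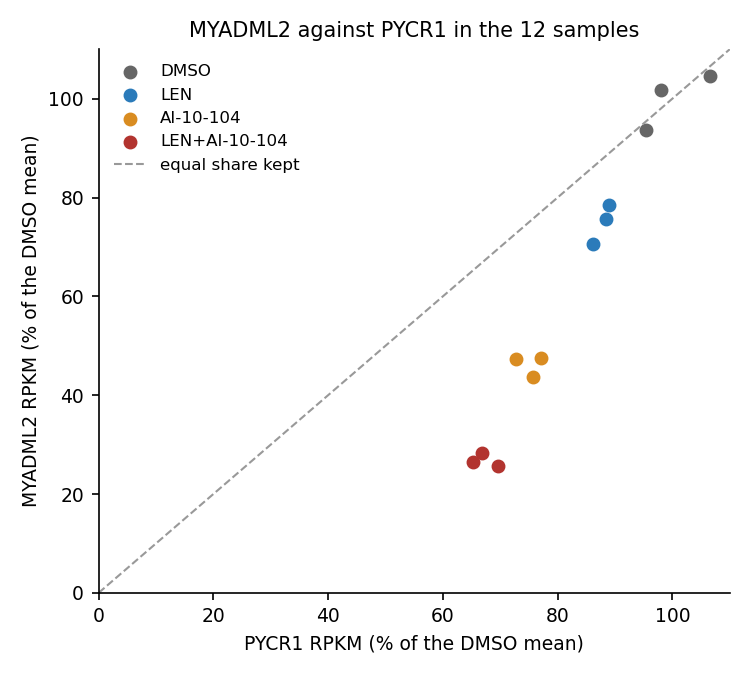
MYADML2 against PYCR1 in each of the 12 samples, both as percent of their DMSO mean, with a dashed line where both genes keep an equal share. All treated samples lie under the line, and the combination samples lie farthest from it, at a mean of 67.3% for PYCR1 and 26.8% for MYADML2.

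Within conditions, no relation of the 2 genes passed a test. MYADML2 varied there by a pooled SD of only 0.07 log2 units, on 54 to 383 reads per sample. Counting error at such reads was not removed, so the test cannot decide whether the genes move together within conditions. After removal of the condition means, the 12 samples gave a Pearson r of 0.349 between MYADML2 and PYCR1 (exact permutation p = 0.386 over 1296 permutations within conditions, two-sided, adjusted p = 0.863). Spearman's rho was 0.413 (exact permutation p = 0.275, adjusted p = 0.607), and 3 gene pairs were examined. Without the 2 samples farthest from the median, DMSO replicate 3 and LEN replicate 1, r was 0.051. With NOTUM, r was 0.003 for MYADML2 and 0.189 for PYCR1, where NOTUM was under its floor.

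A further look at the region took in all genes with a body within 200 kb of MYADML2. There were 27 such genes in the table besides MYADML2, of which 21 passed the filter, PYCR1 included. PYCR1 alone was called among them in LEN+AI-10-104 against DMSO, and it fell, where 0.641% of all genes tested were called lower. The median log2 fold change of the 21 was 0.04 against 0.02 over all genes tested. In LEN, 0 of the 21 were called by limma in either direction and 0 by voom, an alternative fit on the reads, and their median was -0.04. By voom, 0.0356% of all genes tested were called lower and 0.89% higher. At an unadjusted p under 0.05, 3 of the 21 were lower and 0 higher in LEN, against 4.15% and 6.57% of all genes tested. In AI-10-104, PYCR1 and ASPSCR1 were called lower and 0 higher, and the median was -0.12 against 0.01 over all genes tested. Voom called 3 lower in AI-10-104, PYCR1, ASPSCR1 and ANAPC11, against 1.49% of all genes tested called lower and 1.01% higher. At an unadjusted p under 0.05, 11 of the 21 were lower and 0 higher, against 10.2% and 11.7% of all genes tested. In LEN+AI-10-104, 2 of the 21 were lower and 1 higher at this cutoff, against 8.73% and 14.9% of all genes tested, and voom called PYCR1 alone, against 0.694% called lower and 2.72% higher. In LEN+AI-10-104 against AI-10-104, where MYADML2 was at -0.74, only PYCR1 (-0.16) and SNORD134 (-0.05) of the 21 were below 0. SNORD134 had only 3 to 12 reads in a sample and a standard error of 0.40, so its sign cannot be read. The median of the 21 was 0.14 against 0.02 over all genes tested. ANAPC11 and MCRIP1 were called higher there and 0 lower, where 355 of 11241 genes tested were called higher.

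**Figure D4:**
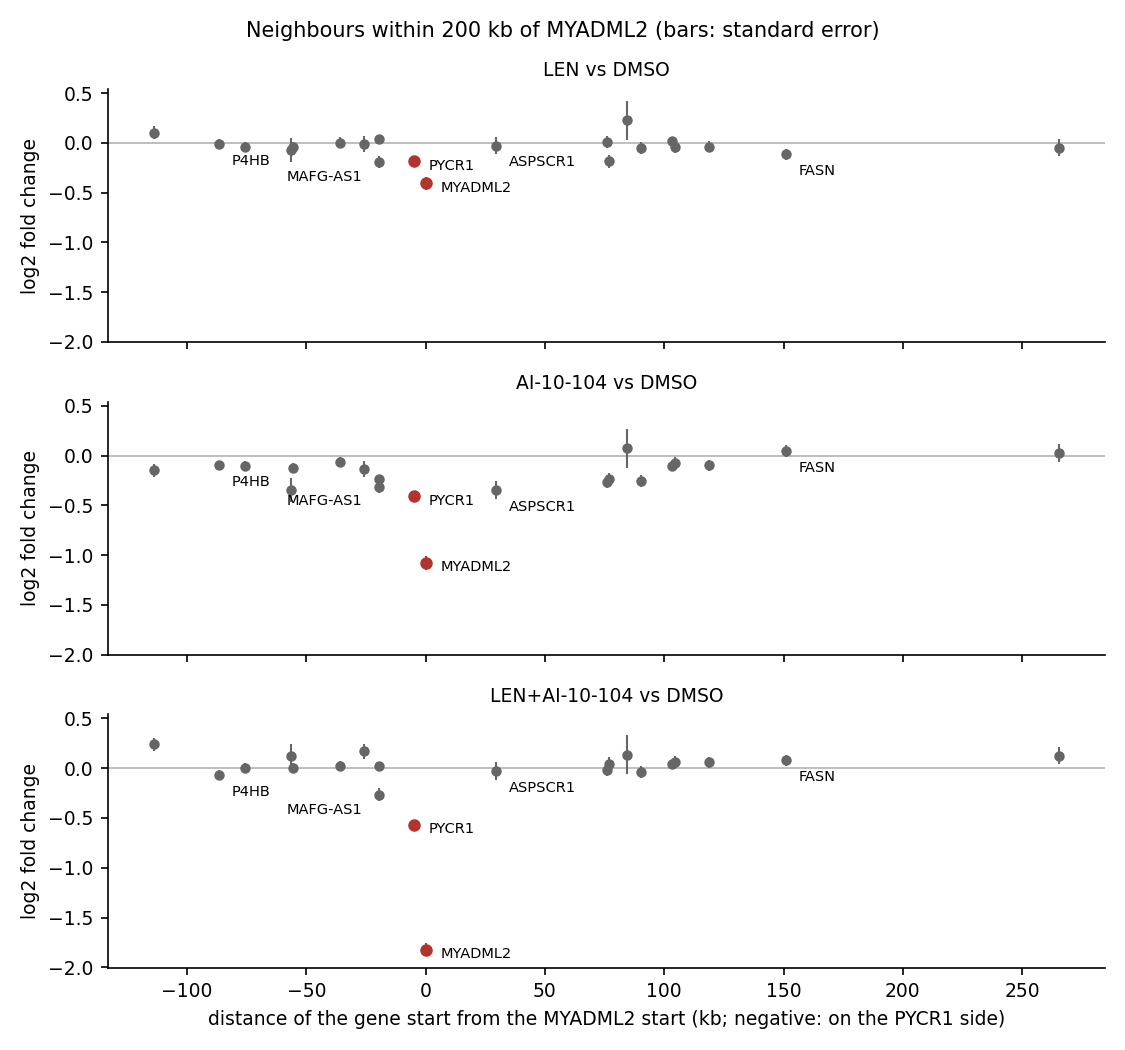
Log2 fold change against DMSO (points, bars are standard errors) of MYADML2, PYCR1 (both red) and 19 other tested neighbours (grey) by distance in kb between gene starts, with 1 panel per comparison. The small RNA SNORD134 is left out of the plot. In LEN+AI-10-104, MYADML2 (-1.82) and PYCR1 (-0.57) lie below the other neighbours, which range around 0.

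On the PYCR1 side, the next gene is MAFG-AS1 (named MILIP in GENCODE), a lncRNA on the plus strand that ends 1630 bases from PYCR1. Its level was 11.1, 9.27 and 11.2 RPKM in DMSO and 9.26, 9.18 and 9.09 RPKM in LEN. It was 8.50, 8.62 and 8.16 RPKM in AI-10-104 and 8.78, 8.39 and 8.94 RPKM in LEN+AI-10-104. All 9 treated samples lay below all 3 DMSO samples, of which replicate 2 was the lowest and close to LEN. Of all genes tested, 7.03%, 10.2% and 11.1% lay wholly below DMSO in LEN, AI-10-104 and LEN+AI-10-104. The share that did so in every treatment was not counted. The log2 fold changes were -0.19 with LEN, -0.31 with AI-10-104 and -0.27 with both, with a standard error of 0.06 and limma adjusted p of 0.23, 0.019 and 0.024, and none reached the size needed for a call. Without DMSO replicate 2 the last 2 were called, at -0.40 (limma adjusted p = 0.0010) and -0.35 (limma adjusted p = 0.0015). In contrast to MYADML2 and PYCR1, MAFG-AS1 was not lower in the combination than in AI-10-104.

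MAFG, which encodes a small Maf transcription factor and starts next to MAFG-AS1 on the other strand, had log2 fold changes of 0.04 with LEN, -0.23 with AI-10-104 (limma adjusted p = 0.0072, short of the size for a call) and 0.03 with both. SIRT7, a deacylase of the sirtuin family, was at -0.02, -0.14 and 0.17 in the same order. PCYT2, an enzyme of phosphatidylethanolamine synthesis, was at 0.00, -0.06 and 0.02, and neither was called.

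On the NOTUM side, LOC105371939 had at most 3 reads in a sample, as NOTUM did. The first gene with a level above the filter was ASPSCR1, which encodes a tether of the glucose transporter GLUT4 and starts 29.6 kb upstream of the MYADML2 start. It was at 5.39, 4.80 and 5.03 RPKM in DMSO and 5.29, 5.06 and 4.60 RPKM in LEN. Under AI-10-104 it was at 3.56, 4.59 and 3.82 RPKM, and under the combination at 5.06, 5.15 and 4.72 RPKM. Only AI-10-104 lay wholly below DMSO, with replicate 2 near the DMSO range, and the fall of 0.35 on the log2 scale was called (limma adjusted p = 0.047). This call was lost in 11 of the 12 fits that each left out 1 sample, with limma adjusted p up to 0.19, and the exception was the fit without AI-10-104 replicate 2. In the combination ASPSCR1 was at -0.03 against DMSO (limma adjusted p = 0.90). Further out, STRA13 (now CENPX), a kinetochore protein gene, was at -0.19, -0.24 and 0.04, and LRRC45, a centrosomal protein gene, was at 0.01, -0.26 and -0.02 in LEN, AI-10-104 and LEN+AI-10-104, without a call.

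Counted without a threshold, 4 of the 21 neighbours lay below all DMSO samples in all LEN samples (FASN, MAFG-AS1, PYCR1 and STRA13), where 7.03% of all genes tested did. In AI-10-104 there were 7, against 10.2% of all genes, and in LEN+AI-10-104 there were 2, MAFG-AS1 and PYCR1, against 11.1%. AI-10-104 replicate 2 was the highest of its condition for 18 of the 21 neighbours, whereas over all genes tested it was the highest for 4216 of 11241. Without this sample 4 neighbours were called lower in AI-10-104 against DMSO (PYCR1, ASPSCR1, MAFG-AS1 and ANAPC11), but the genes called lower over all tested also rose, from 122 to 299, or 2.66%. What sets it apart in this region was not tested.

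Other genes followed MYADML2 across the 12 samples as closely as PYCR1 did. By Pearson r of log2(RPKM + 0.1), the 5 most alike of 11240 genes were EIF4B (0.990), AMPD1 (0.977), NRAS (0.975), PYCR1 (0.971) and DEPTOR (0.964), given as a description over samples that share the 4 conditions. EIF4B encodes a translation initiation factor, AMPD1 an AMP deaminase, NRAS a GTPase mutated in many myelomas and DEPTOR an inhibitor of mTOR signalling. MAFG-AS1 was at place 387 in this order with r of 0.686, and the remaining neighbours had an r of 0.541 or less. NOTUM is not in the order because it was under the filter.

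These genes shared the order of conditions with MYADML2 but differed in size. AMPD1 had the next largest difference, with 23.3 ± 1.98 and 21.2 ± 2.46 RPKM in DMSO and LEN, and 12.8 ± 0.290 and 9.69 ± 0.761 RPKM under AI-10-104 and the combination (SD, n = 3), or -0.14, -0.85 and -1.26 on the log2 scale. EIF4B was at 128 ± 1.51 RPKM in DMSO and 113 ± 1.53 RPKM under LEN+AI-10-104, a log2 difference of -0.18. NRAS differed by -0.42 and DEPTOR by -0.38 in the combination, smaller than the -0.57 of PYCR1.

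To place PYCR1 in its pathway, 17 genes of proline metabolism were examined, and 12 passed the filter. PYCR1 was the 1 gene called lower against DMSO under AI-10-104 and the combination, where 1.09% and 0.641% of all genes tested were called lower. In these, 0 were called higher. In LEN, 0 of the 12 were called by limma or voom. At an unadjusted p under 0.05, 1 was lower and 0 higher in LEN, against 4.15% and 6.57% of all genes tested. In AI-10-104, 2 were lower and 4 higher at this cutoff, against 10.2% and 11.7%. In the combination, 3 were lower and 2 higher, against 8.73% and 14.9%. OAT was opposite in sign to PYCR1 in AI-10-104, at 0.22 (limma adjusted p = 0.0092), short of the size for a call. ALDH18A1, which makes the pyrroline-5-carboxylate that PYCR1 uses, had a log2 fold change of -0.08 in the combination (limma adjusted p = 0.18). The other largest differences in the combination were 0.25 for P4HA1 (a collagen prolyl hydroxylase subunit), -0.16 for ARG2 (mitochondrial arginase), 0.12 for ALDH4A1 (a step of proline breakdown) and -0.12 for SLC1A5 (a glutamine transporter), and none was called. The median of the 12 genes was -0.05, against 0.02 over all genes tested.

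Wnt secretion and feedback genes, the pathway of NOTUM, numbered 41 in the table and 20 above the filter. Against DMSO, 0 of the 20 were called in LEN, AI-10-104 or LEN+AI-10-104 by limma, in either direction. At an unadjusted p under 0.05, 1 was lower and 1 higher in LEN, against 4.15% and 6.57% of all genes tested. In AI-10-104 there were 3 lower and 3 higher, against 10.2% and 11.7%, and in the combination 3 and 3, against 8.73% and 14.9%. Voom called FZD1 higher in the combination, where it called 2.72% of all genes tested higher. The fits without LEN replicate 1 or LEN replicate 2 also called FZD1 higher there. With 1 sample left out, 182 to 271 genes over all tested were called higher there. KREMEN2 was called lower in AI-10-104 in the fit without AI-10-104 replicate 2 (-0.49, limma adjusted p = 0.019), where 2.66% of all genes tested were. The largest difference in the combination was 0.33 for the receptor FZD1 (limma adjusted p = 0.053), followed by KREMEN1 (0.23), FZD8 (0.21) and KREMEN2 (0.19). CTNNB1 was lower there, at -0.13 (limma adjusted p = 0.025), short of the size for a call. In the combination 11 of the 20 were below 0, and their median was -0.01 against 0.02 over all genes tested. Of 24 MARVEL domain genes other than MYADML2, 7 passed the filter and 0 were called against DMSO by limma or voom, while 0 were lower and 3 higher at an unadjusted p under 0.05 in the combination, against 8.73% and 14.9% of all genes tested. MYADM, the paralogue that gave MYADML2 its name, was at 15.2 ± 0.969 RPKM in DMSO and 17.6 ± 0.667 in LEN+AI-10-104 (SD, n = 3). Its log2 fold change of 0.21 (limma adjusted p = 0.023) was opposite in sign to that of MYADML2 and short of the size for a call. SYNGR2 (0.17, limma adjusted p = 0.031) was likewise short of that size. CMTM1 (0.41, limma adjusted p = 0.20) and CMTM4 (0.22, limma adjusted p = 0.24) did not pass the adjusted p, and the median of the 7 genes was 0.17.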

How the data were processed

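Poly(A) RNA of 12 OPM-1 samples was sequenced on libraries that mark the strand. Per the labels, the authors' processing used STAR and GRCh38, and versions and counting settings are not given in the sources used here. The authors deposited RPKM values with gene lengths, although FPKM had been assumed in planning. RPKM times length summed to 1000000 in each sample, and 100% of values came out as whole reads (tolerance 0.01 reads).

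The 11241 genes averaging 0.5 RPKM or more were fitted on log2(RPKM + 0.1) with limma 3.58.1 in R 4.3.3, with 1 mean per condition, a variance trend and Benjamini-Hochberg adjustment over all genes tested. A gene was called where the adjusted p was 0.05 or less and the log2 fold change 0.32 or more in size, or the adjusted p alone for the interaction. The fit was tested on simulated data. Levels, ratios, correlations and exon overlaps were computed in Python 3.11.15 with numpy 2.4.6, pandas 2.3.3 and scipy 1.17.1, and plots were drawn with matplotlib 3.10.9. Older gene names were matched through RefSeq synonyms.

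The genes and lists were chosen with earlier results of these data known. Named were the 3 genes, neighbours called in LEN+AI-10-104 and the 5 nearest on each side, list genes called against DMSO and otherwise the 4 with the largest difference in LEN+AI-10-104, and the 5 genes most like MYADML2. FASN, ANAPC11, MCRIP1, SNORD134, ALDH18A1, OAT, WNT10A, CTNNB1, CMTM7 and the names of markers without reads were added after their values were seen. Alternatives covered pseudocounts, filters, scaling, voom on the reads, GC and length correction, a replicate block, thinned reads and leaving out each sample.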

Additional observations from a re-analysis of the deposited data

How the results depend on the processing

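No difference of MYADML2 or PYCR1 between 2 conditions changed sign under any alternative run, and causes of the shifts that follow were not tested. For MYADML2, a pseudocount of 1 gave -0.85 with AI-10-104 and -1.34 with both against DMSO, -1.004 in the combination against LEN and -0.49 against AI-10-104. Correction for GC content and length gave -0.995, -1.90, -1.50 and -0.91 in the same order, with or without the replicate block. Voom gave -1.90 against DMSO and -1.49 against LEN in the combination, quantile normalization -1.90 against DMSO, and thinned reads -0.988 in AI-10-104. For PYCR1, LEN+AI-10-104 against AI-10-104 became a call under the GC and length correction (-0.33, limma adjusted p = 0.00053, or 0.00050 with the replicate block) and under the adjusted p alone (-0.16), as did LEN against AI-10-104 under the adjusted p alone (0.22). PYCR1 kept its calls against DMSO in all 12 fits without 1 sample, at -0.44 to -0.36 with AI-10-104 and -0.60 to -0.52 with both. Neighbours called lower in AI-10-104 against DMSO numbered 1 instead of 2 under a pseudocount of 1, any value above 0, only the conditions compared, no variance trend, and the GC and length correction with or without the replicate block. They numbered 3 with voom (ANAPC11 was added) and 3 with median-ratio rescaling (MAFG-AS1 was added), 6 under the adjusted p alone and 1 to 4 when 1 sample was left out. In LEN+AI-10-104 they numbered 2 under the GC and length correction (MAFG-AS1 was added) with or without the block, 2 under the adjusted p alone and 1 to 2 when 1 sample was left out, and 1 was called higher under the adjusted p alone. The interaction of PYCR1 was -0.15 with the GC and length correction, with or without the block. Of the Wnt genes, WNT10A was called higher in AI-10-104 with that correction (0.40), and FZD1 higher in the combination with no variance trend (0.33). Under the adjusted p alone, CTNNB1 of the Wnt genes was called lower in the combination (-0.13). OAT of the proline genes was called higher in AI-10-104 under that rule (0.22). Of the MARVEL genes, CMTM7 was called lower in the combination with any value above 0 (-0.79), and 2, MYADM and SYNGR2, were called higher there under the adjusted p alone. Genes called lower against DMSO, over all tested, ranged from 2 to 17 with LEN, 69 to 299 with AI-10-104 and 47 to 337 with both. Those called higher ranged from 33 to 110, 44 to 235 and 181 to 634 in the same order. Samples with the same replicate number had a mean correlation of their deviations of 0.052 (18 pairs, -0.027 to 0.155), against -0.026 for different numbers. The sources used here do not say that the numbers pair the samples. The main fit and the permutations within conditions therefore did not use the numbers, although the correlation was higher for equal ones. In 10 of 12 samples the best correlation was with the sample's own number, a hint from the data only. With the replicate block alone, no call of PYCR1 or another neighbour against DMSO changed. The correlation of MYADML2 with PYCR1 within conditions was 0.0865 to 0.581 when 1 sample was left out. The alternative with any value above 0 also fitted NOTUM, but with at most 3 reads per sample its fold changes cannot be read and are not given.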
